A study of Homo sapiens with 6 samples.

Results

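The small nucleolar RNA host transcripts described here are 10 noncoding genes, GAS5, SNHG1, SNHG5, SNHG6, SNHG7, SNHG8, SNHG12, SNHG15, SNHG16 and ZFAS1. They were chosen by gene name, and all 10 were found among the 16000 genes of the deposited expression table. The table holds 6 poly(A) RNA libraries of LNCaP, an androgen-sensitive human prostate cancer line kept in culture. ALDEFLUOR, which makes cells fluoresce in proportion to their aldehyde dehydrogenase (ALDH) activity, was used as the stain, and the brightest 10% (ALDH high) and dimmest 10% (ALDH low) were sorted, with 3 libraries of each. Both groups are the same unmodified cell line, grown in RPMI-1640 with 10% fetal bovine serum and given no treatment. Whether the 3 libraries of a group came from separate sorts is not given, so each p-value reflects only how far these libraries vary, which may be technical. The comparison asks how expression differs between cells of high and low ALDH activity.

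A host gene is transcribed and spliced, and its introns are trimmed into small nucleolar RNAs (snoRNAs), which guide the methylation (box C/D type) or pseudouridylation (box H/ACA type) of ribosomal and spliceosomal RNA. The spliced exons of noncoding hosts have little known coding function. Many such hosts begin, like ribosomal protein mRNAs, with a 5′ terminal oligopyrimidine (TOP) tract, the element through which growth signals control translation. GAS5 and several others are degraded by nonsense-mediated decay when they are translated, so their exonic RNA can build up when translation slows. Poly(A) RNA measures the spliced host, not the mature snoRNA, which has no poly(A) tail.

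By RefSeq gene positions, GAS5 spans 11 snoRNA genes (10 box C/D and 1 box H/ACA) and SNHG1 spans 9. SNHG12 spans 4, SNHG16 and ZFAS1 span 3 each, SNHG5 and SNHG7 span 2 each, and SNHG6, SNHG8 and SNHG15 span 1 each. The hosts of box H/ACA snoRNAs alone are SNHG7, SNHG8 and SNHG15. None of these snoRNAs has a row of its own in the table, although 24 other small nucleolar or Cajal body RNAs do.

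The start sites are shown because many such hosts have a TOP tract, a feature that the choice by name did not use. RefSeq promoter sequences (GRCh38.p14) were matched for 8 of the 10 genes. Each window below runs 5′ to 3′ on the gene's strand, with 10 bases before the annotated start and 20 from it. Capitals mark the longest run of pyrimidines that opens with C within 10 bases of the start, where it has at least 5 bases. Such a run may open before or after the start, whereas a TOP tract opens at it.
SNHG5: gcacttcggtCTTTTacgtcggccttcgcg
ZFAS1: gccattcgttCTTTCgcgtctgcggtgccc
SNHG8: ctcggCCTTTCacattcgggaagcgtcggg
SNHG12: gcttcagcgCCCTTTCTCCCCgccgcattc
SNHG16: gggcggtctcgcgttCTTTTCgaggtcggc
SNHG7: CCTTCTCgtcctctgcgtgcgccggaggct
SNHG1: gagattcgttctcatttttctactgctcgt
GAS5: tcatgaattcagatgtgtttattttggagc
The windows lie at chr6:85678714-85678743 (minus strand), chr20:49278632-49278661 (plus), chr4:118278752-118278781 (plus), chr1:28581854-28581883 (minus), chr17:76557754-76557783 (plus), chr9:136728165-136728194 (minus), chr11:62855866-62855895 (minus) and chr1:173869026-173869055 (minus), in the order printed. In SNHG5 and ZFAS1 the run opens at the first base from the start in the promoter table. In SNHG8 it opens 5 bases before the start and ends at the first base from it, and in SNHG16 it opens only at base 6. In SNHG7 the marked run lies wholly before the start, and a shorter run across the start is left unmarked. Such a run was found in 6 of the 8 genes, in 33.7% of the 10501 genes of the table that have a promoter sequence, in 84.8% of 66 ribosomal protein genes, and in 7 of 13 other noncoding snoRNA hosts of the table (53.8%), searched on the transcribed strand only. SNHG1 starts with a C but has no run of that length there. These genes have several annotated starts. The start used lies 464 bases downstream of the outermost RefSeq and GENCODE start of ZFAS1, and 1110 (RefSeq) and 1259 bases (GENCODE) downstream of that of SNHG12. For GAS5 it is the outermost RefSeq start, which lies upstream of the GENCODE one. Which starts these cells use was not measured, so a window with or without a run may not be the one in use.

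Recovered reads ran from 23817310 to 30617873 per library, spike-in sequences included, and every one of the 10 genes had at least 282 reads in each library. Over the 16000 genes, the library labelled ALDH low 2 was nearest to ALDH high 1 (r = 0.991) and ALDH high 3 (0.990), and further from ALDH low 1 (0.974) and ALDH low 3 (0.971). The nearest library to ALDH high 2 was ALDH low 1 (0.986). Differences of the 10 genes are therefore given with and without single libraries. Of gene reads, mitochondrial transcripts took 4.90%, 2.89% and 4.90% in ALDH high, by library number, against 2.01%, 4.55% and 2.996% in ALDH low. The luminal prostate markers KLK3, KLK2, HOXB13, TMPRSS2, FOLH1, KRT8 and KRT18 were all present. Their summed level was 171969 to 190576 normalized reads in ALDH high and 171383 to 207899.7 in ALDH low, highest in ALDH low 3. Of 3 basal, 5 leukocyte, 6 fibroblast and 4 endothelial markers, 1 of each had a row in the table. These were KRT14 at 70.2 to 286 normalized reads, CD68 at 16.4 to 32.0, COL1A1 at 821 (ALDH low 1) to 1776 and VWF at 189 to 417. Their part in the results was not tested.

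Per length, SNHG8, GAS5 and SNHG6 were the most abundant hosts and SNHG12 the least. Levels here are normalized reads per kb of merged GENCODE exons, as the mean ± SD over the 6 libraries. SNHG8 averaged 3116 ± 1478, GAS5 2558 ± 523 and SNHG6 2246 ± 622, and the ranges of neighbours in this order overlapped. The first place of SNHG8 came from ALDH low, since the ALDH high means were 2283 for GAS5 and 2259.9 for SNHG8. ZFAS1 followed at 1106 ± 265, with a range of 882 to 1524 that overlapped no other gene's. SNHG1 (489 ± 61.2), SNHG16 (479 ± 83.3), SNHG15 (326 ± 52.7) and SNHG5 (259 ± 78.5) formed a run of overlapping neighbours. SNHG7 (139 ± 17.8) and SNHG12 (75.0 ± 7.85) lay below them without overlap. The merged exons of all annotated transcripts cover 3756 of the 3927 bases of SNHG1, so lengths here can exceed that of a single spliced form. They cover 3631 of 4983 bases of GAS5 but 1247 of 4715 of SNHG6, so the order of genes depends on these lengths. The plot of level per exon length shows how wide the upper genes' ranges are.

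**Figure D1:**
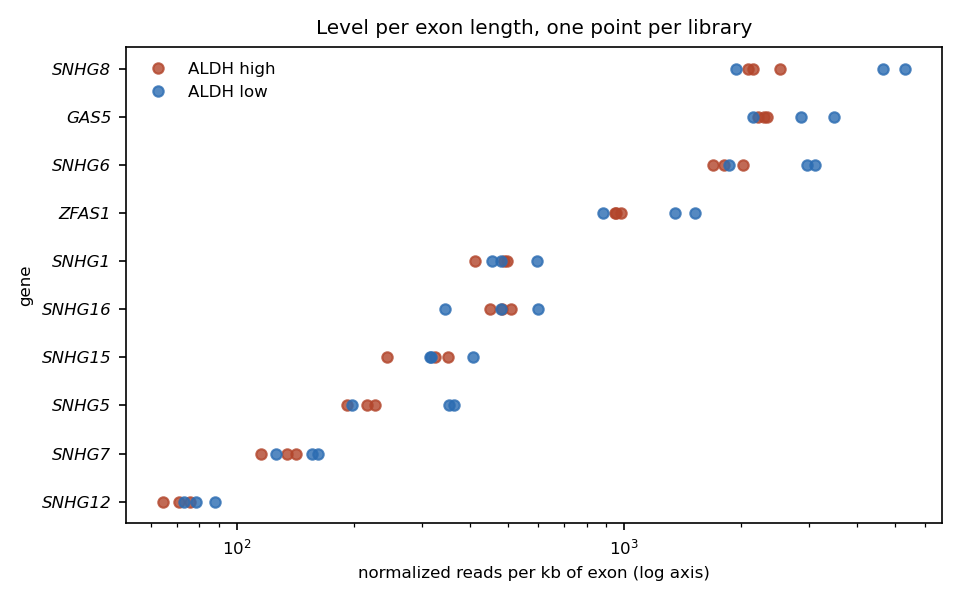
Normalized reads per kb of exon (log axis) for each host transcript, 1 point per library, ALDH high in red and ALDH low in blue. SNHG8, GAS5 and SNHG6 overlap at the top, ZFAS1 stands between 882 and 1524, and SNHG12 is lowest.

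Between the groups as labelled, 9 of the 10 host transcripts had a lower mean log2 level in ALDH high, but none passed the test and the groups overlapped in every one. The means over 3 libraries hide a shared arrangement: in 7 genes the 2 highest libraries were ALDH low 1 and ALDH low 3, while ALDH low 2 lay with the ALDH high libraries. Values below are normalized reads, in the order of libraries 1, 2 and 3.

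SNHG8 (chromosome 4, 118278709 to 118279823, plus strand), the host of SNORA24, varied most. It had 1927, 2339 and 1991 normalized reads among ALDH high libraries, then 4904, 1792 and 4305 among the ALDH low ones. ALDH low 1 and ALDH low 3 stood at 2.35 and 2.06 times the ALDH high mean, and ALDH low 2 was the lowest of all 6. Its log2 difference, ALDH high minus ALDH low, was −0.69 (95% interval −1.39 to 0.01, limma adjusted p = 0.984 over all genes).

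SNHG6 (chromosome 8, 66921684 to 66926398, minus strand), the host of SNORD87, had 2265, 2111 and 2525 (ALDH high) against 3876, 2334 and 3694 (ALDH low). ALDH low 2 lay within the ALDH high range, and the other ALDH low libraries lay well above it. The log2 difference was −0.49 (−0.93 to −0.05), the only interval of the 10 that left out 0, with an unadjusted limma p of 0.033. Across all genes, 0.738% had an unadjusted p under 0.05 and were lower in ALDH high, and 0% had an adjusted p under 0.05.

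SNHG5 (chromosome 6, 85660950 to 85678748, minus strand), the host of SNORD50A and SNORD50B, had 608, 639 and 538 among ALDH high libraries, then 1021, 556 and 992 among the ALDH low ones. The pair ALDH low 1 and ALDH low 3 was again apart, at 1.71 and 1.67 times the ALDH high mean. Its log2 difference was −0.48 (−0.99 to 0.04).

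ZFAS1 (chromosome 20, 49278178 to 49295738, plus strand) starts beside the gene ZNFX1 on the opposite strand and carries the SNORD12 family. It had 2196, 2127 and 2138 (ALDH high) against 3034, 1979 and 3418 (ALDH low). The ALDH high libraries agreed closely (2153 ± 37.4, SD, n = 3), and the spread lay within ALDH low (2810 ± 745). Its log2 difference was −0.35 (−0.78 to 0.09).

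GAS5 (chromosome 1, 173863900 to 173868882, minus strand), named for its rise in growth-arrested cells, had the most reads of the 10. It had 8322, 8068 and 8483 among ALDH high libraries, then 10372, 7799 and 12688 among the ALDH low ones. The means were 8291 ± 209 for ALDH high against 10286 ± 2445 (SD, 3 libraries per group), with ALDH low 2 lowest of all. The log2 difference was −0.28 (−0.70 to 0.13).

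SNHG7 and SNHG12 followed the same arrangement on a smaller scale. SNHG7 (chromosome 9, 136721366 to 136728184) had 616, 500.0 and 584 (ALDH high) against 703, 548 and 679 (ALDH low), a log2 difference of −0.18 (−0.56 to 0.20). SNHG12 (chromosome 1, 28578538 to 28583132) had 302, 275 and 322 among ALDH high libraries, then 335, 311 and 374 among the ALDH low ones, also −0.18 (−0.58 to 0.22). In both, ALDH low 2 fell inside the ALDH high range and ALDH high 2 was the lowest library.

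The remaining 3 genes did not share the arrangement. SNHG15 (chromosome 7, 44983023 to 44986961) had 1277, 892 and 1181 (ALDH high) against 1149, 1159 and 1482 (ALDH low), with only ALDH low 3 above the ALDH high range. SNHG1 (chromosome 11, 62851988 to 62855914), host of the SNORD22 and SNORD25 to SNORD31 group, had 1841, 1543 and 1873 among ALDH high libraries, then 2236, 1811 and 1707 among the ALDH low ones. Here ALDH low 1 was highest and ALDH low 3 lay among the ALDH high libraries. SNHG16 (chromosome 17, 76557766 to 76565348) had 2742, 2421 and 2600.5 (ALDH high) against 1849, 2576 and 3221 (ALDH low). In SNHG16 the ALDH low libraries held both the lowest and the highest value. The log2 differences were −0.18 (−0.59 to 0.22) for SNHG15, −0.13 (−0.48 to 0.23) for SNHG1 and 0.06 (−0.38 to 0.49) for SNHG16.

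**Figure D2:**
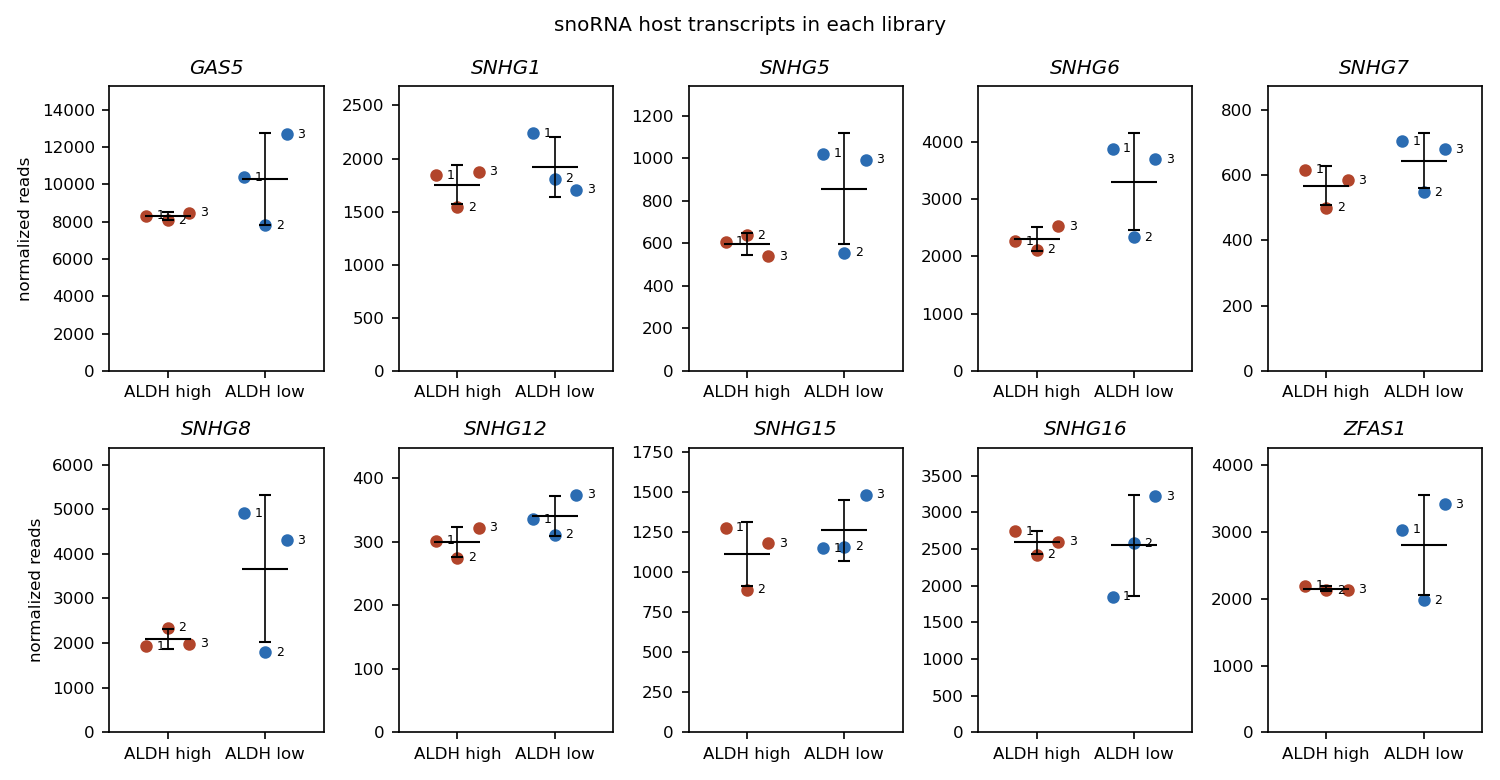
Normalized reads of each host transcript in the 3 ALDH high (red) and 3 ALDH low (blue) libraries, numbered by replicate, with black bars for the mean and SD. In GAS5, SNHG5, SNHG6, SNHG7, SNHG8, SNHG12 and ZFAS1 the ALDH low libraries 1 and 3 are the 2 highest and ALDH low 2 lies at or near the ALDH high points.

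Limma called 0 of the 10 genes and 0 of all 16000 at an adjusted p of 0.05. At an unadjusted p under 0.05 it counted 1 of the 10 and 338 of all genes (2.11%), while edgeR and DESeq2 on recovered reads counted 3 of the 10 each, beside 2.23% (edgeR) and 2.22% (DESeq2) of all genes, and called 0. The share of all genes with a log2 difference below 0 was 47.7%, against 9 of these 10, with a median of −0.23 beside 0.02 for all genes. The groups did not overlap in 0 of the 10, against 6.99% of all genes in either direction and 3.32% with ALDH low higher. For all but SNHG8, 9 of the 10, both ends of the 95% interval stayed inside a 2-fold change, as they did for 74.7% of all genes. In the authors' deposited table, whose log2 fold change is positive where ALDH low is higher, SNHG8 has 0.81 (p = 0.00567), SNHG6 0.52 (p = 0.0155) and SNHG5 0.52 (p = 0.0317), each with an adjusted p of 0.998.

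**Figure D3:**
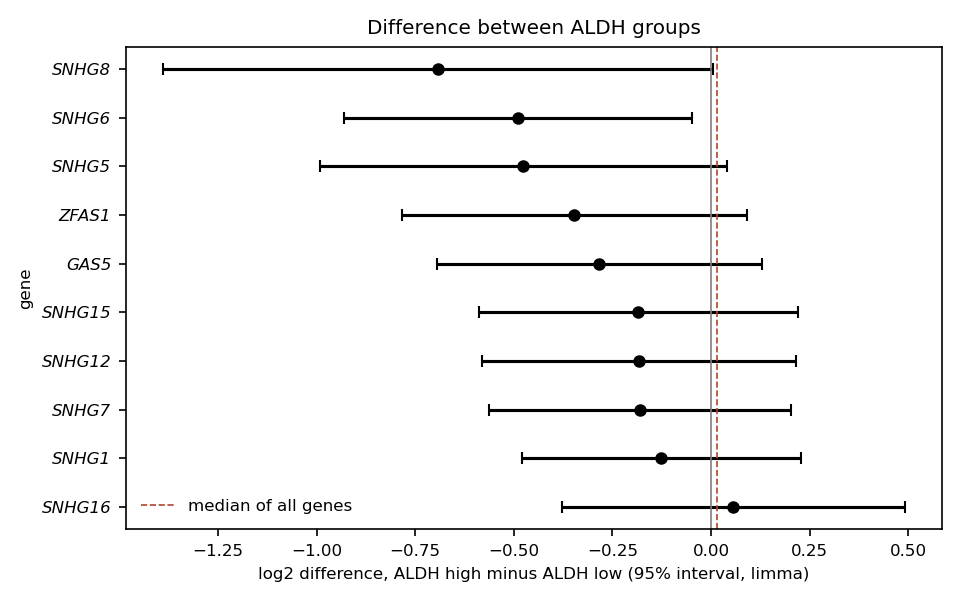
Log2 difference, ALDH high minus ALDH low, with the 95% interval from limma (n = 3 libraries each), ordered by size, and the median of all genes as a dashed line. SNHG8 lies furthest from 0 at −0.69, SNHG16 is the only gene above 0, and only the interval of SNHG6 leaves out 0.

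Single libraries set the size of these differences. Without ALDH low 2, SNHG8 was at −1.14, SNHG5 at −0.76, ZFAS1 at −0.58, GAS5 at −0.47 and SNHG7 at −0.29, and 5 of the 10 had an unadjusted limma p under 0.05, as had 10.6% of all genes, with none called (smallest adjusted p = 0.436). Without ALDH low 1, SNHG8 was at −0.42, SNHG7 at −0.11, SNHG1 at −0.01, SNHG16 turned to −0.16 and all 10 lay below 0. Without ALDH low 3, ZFAS1 was at −0.19, GAS5 at −0.12, SNHG12 at −0.11, SNHG15 at −0.06, SNHG1 at −0.20 and SNHG16 at 0.24. SNHG15 also depended on ALDH high 1 (−0.29 without it) and, with SNHG1, SNHG7 and SNHG12, on ALDH high 2 (−0.03, −0.04, −0.09 and −0.12 without it). SNHG16 was at 0.10 without ALDH high 2 and 0.01 without ALDH high 1. With both libraries numbered 2 left out, an alternative added once the data had been seen, limma called SNHG8 (log2 difference −1.23, adjusted p = 0.0322) as 1 of 107 genes (0.669% of all) between the 4 libraries left. The other 9 were not called there, 9 of the 10 lay below 0, and the median was −0.33. Which labels those 2 libraries should carry was not tested.

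The arrangement across libraries was common to most of the hosts. In 7 of the 10 the 2 highest libraries were ALDH low 1 and ALDH low 3, which held in 13% of all genes. It was not particular to these hosts. Among ribosomal protein genes it held in 19 of 28 that host a snoRNA (67.9%) and 30 of 54 without an annotated snoRNA (55.6%). The mean deviation of the 10 hosts on the log2 scale was 0.26 in ALDH low 1 and 0.36 in ALDH low 3, and −0.18 in ALDH low 2. It was −0.10, −0.22 and −0.11 in ALDH high 1, 2 and 3. The Pearson r of a gene with the mean of the other 9 over the 6 libraries was 0.98 in ZFAS1, 0.96 in GAS5, 0.95 in SNHG6 and 0.90 in SNHG5. It was 0.89 in SNHG7, 0.87 in SNHG12 and 0.86 in SNHG8, and 0.59, 0.36 and −0.10 in SNHG15, SNHG1 and SNHG16. Of the 45 pairs, 40 had a positive r and the median was 0.66, from −0.64 for SNHG1 with SNHG16 to 0.98 for SNHG5 with SNHG8. These values share the 6 libraries and their scaling, and describe only these libraries.

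**Figure D4:**
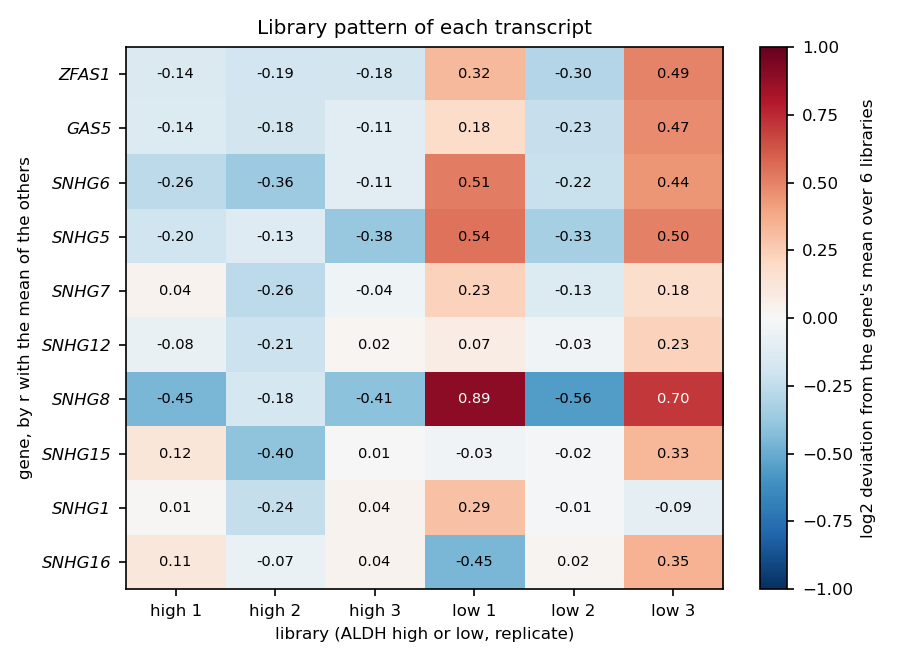
Deviation of each host transcript from its own mean over the 6 libraries (log2 scale, colour and printed value), with genes ordered by their r with the mean of the others. ALDH low 1 and ALDH low 3 are above 0 in the upper 7 genes, up to 0.89 in SNHG8, while SNHG16 is at −0.45 in ALDH low 1.

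Together the 10 transcripts took 0.831, 0.8001 and 0.8201 of every 1000 gene reads in ALDH high, by library number, against 1.12, 0.795 and 1.09 in ALDH low. ALDH low 1 and ALDH low 3 thus lay apart on a scale that does not depend on the deposited size factors. Group means were 0.817 ± 0.0158 for ALDH high against 1.001 ± 0.179 (SD, 3 libraries per group). GAS5 gave 35.2% to 39.0% of these reads in every library. The share of mitochondrial transcripts was lowest in ALDH low 1, ALDH high 2 and ALDH low 3, of which ALDH high 2 had no raised host level, and its part in the result was not tested. In bulk RNA, fewer cells that express a gene and less RNA per cell cannot be told apart.

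The genes whose level over the 6 libraries was most like the mean of the 10 were taken from 11496 others whose mean reached 100 normalized reads. They were AP1S1, a clathrin adaptor subunit (r = 0.996), TMEM14C, a mitochondrial membrane protein of haem synthesis (0.995), GCHFR, the feedback regulator of GTP cyclohydrolase (0.993), EEF1D, a subunit of translation elongation factor 1 (0.992), and TMED9, a cargo receptor of the early secretory pathway (0.991). AP1S1 had 11370, 10698 and 11393 normalized reads among ALDH high libraries, then 14545, 11076 and 16215 among the ALDH low ones. Each of the 5 had ALDH low 1 and ALDH low 3 as its highest libraries, which the choice by likeness favours.

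The 7 neighbouring genes in the table did not have ALDH low 1 and 3 as their 2 highest libraries. Only 13% of all genes had, so this does not set the neighbours apart from other genes. ZNFX1, whose start lies 248 bases from the outermost GENCODE start of ZFAS1 on the other strand, had 794, 1047 and 802 normalized reads (ALDH high) against 841, 833 and 608 (ALDH low). It was lowest in ALDH low 3, where ZFAS1 was highest (r = −0.65 over 6 libraries). SLC3A2, an amino acid transporter subunit 188 bases from the start of SNHG1, had an r of −0.57 with it, and ZBTB37, a zinc finger gene that starts 800 bases from GAS5, had −0.45. Exons on the opposite strand cover 29.3% of the exon bases of SNHG6 (MCMDC2), 25.2% of SNHG7 (FAM69B), 30.6% of SNHG16 (AC015802.6, not analysed here) and 11.1% of ZFAS1 (ZNFX1). Whether counting used strand is not given, so reads of these stretches cannot be assigned to 1 gene. TRNAU1AP, whose exons cover 0.188% of those of SNHG12, had the closest profile to its neighbour of the 7 (r = 0.948, highest in ALDH low 3 for both). MCMDC2 had 125 to 202 normalized reads against at least 2111 for SNHG6, while FAM69B had 968 to 1354, above SNHG7 itself.

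The other noncoding snoRNA hosts showed the arrangement in part. Of 20 listed, 18 were in the table, with 13 differences below 0 and 5 over 0, a median of −0.24 and none called. The 2 highest libraries were ALDH low 1 and 3 in 8 of the 18. The most abundant was LRRC75A-AS1, now also named SNHG29, with 25744, 25247 and 25810.3 among ALDH high libraries, then 35883, 25472 and 32434 among the ALDH low ones. C6orf48 (SNHG32) had 6043, 5322 and 6089 (ALDH high) against 6088, 5622 and 8385 (ALDH low), raised in ALDH low 3 alone. DANCR had 2751, 3441 and 2824 and then 3417, 2710 and 4613 in the same order. SNHG14, a long host transcript of the imprinted Prader-Willi region, went the other way in ALDH low 3 (928, against 1341 to 1747 in the other libraries). SNHG22, the only one of the 18 with an unadjusted limma p under 0.05, was higher in ALDH high (42.9, 42.9 and 64.0 against 19.9, 34.2 and 24.6 normalized reads). The list's median was −0.07 without ALDH low 3 and −0.37 without ALDH low 2.

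Protein-coding hosts divided by whether they encode a ribosomal protein. In a search of GENCODE 29, a snoRNA lay inside an intron of 220 protein-coding genes of the table. The same search found 0 snoRNAs in GAS5, where RefSeq has 11, so it can miss hosts. Some may be among the genes counted here as without an annotated snoRNA. All 28 of the 220 that encode ribosomal proteins or their paralogs had differences below 0, with a median of −0.26. So had all 54 ribosomal protein genes without an annotated snoRNA (median −0.24). Limma called none in either list, and the counts below 0 were 21 of 28 and 33 of 54 without ALDH low 3, with medians of −0.10 and −0.11. With total-count scaling they were 27 and 51. RPL13A had 189271, 200077 and 195997 among ALDH high libraries, then 257247, 174569 and 319317 among the ALDH low ones, with ALDH low 1 and 3 again highest. Of the 192 other coding hosts, 91 lay below 0 and 101 above, with a median of 0.03 (−0.01 without ALDH low 3 and −0.03 without ALDH high 2), beside 0.02 for all genes. Among these, EEF2, the elongation factor of translocation, had 180173, 213587 and 184940.0 (ALDH high) against 238622, 178090 and 200588 (ALDH low). Summed levels in ALDH low 1, 2 and 3, relative to the ALDH high mean, were 1.36, 0.959 and 1.497 for the 10 hosts, 1.197, 0.938 and 1.48 for ribosomal protein hosts, and 1.05, 0.997 and 1.05 for the other coding hosts. All genes together stood at 0.992, 0.986 and 1.12 on this scale, so ALDH low 3 was raised for the whole table. Per 1000 gene reads the 10 hosts took 1.12 in ALDH low 1 and 1.09 in ALDH low 3.

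**Figure D5:**
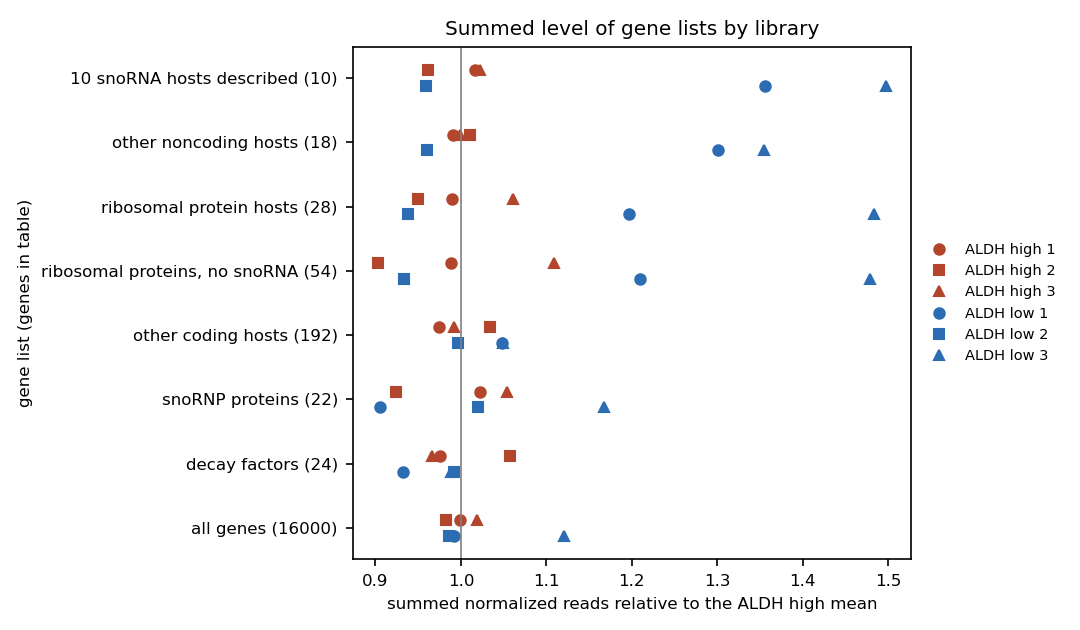
Summed normalized reads of gene lists in each library, relative to the mean of the 3 ALDH high libraries, with colour for the group and symbol for the replicate. ALDH low 1 and ALDH low 3 are at 1.36 and 1.497 for the 10 hosts and at 1.05 for coding hosts other than ribosomal proteins. For all genes together they are at 0.992 and 1.12.

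Genes of proteins that bind snoRNAs had another order of libraries. The 22 snoRNP proteins and assembly factors had 16 differences below 0, with a median of −0.06. That direction depended on the scaling and on single libraries: 12 were below 0 with total-count scaling or without ALDH high 2, 14 without ALDH low 2, 11 with mitochondrial genes left out, and 7, with a median of 0.05, without ALDH low 3. FBL, the methyltransferase of box C/D particles, had 14989, 11555 and 16067 among ALDH high libraries, then 11527, 14568 and 16994 among the ALDH low ones, so that ALDH low 1 was the lowest library. NHP2, a core protein of box H/ACA particles, was at 5324 in ALDH low 1 and 5259 in ALDH high 2, against 7179 to 8621 elsewhere. NOLC1, a chaperone of snoRNPs, was lowest in ALDH low 1 (5891) and highest in ALDH high 2 (8408). None of the list was called.

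Of 24 factors of nonsense-mediated decay, 9 lay below 0 and the median was 0.03, with none called and none with ALDH low 1 and 3 as its 2 highest libraries. Below 0 were 7 with total-count scaling (median 0.08) and 4 with mitochondrial genes left out (0.09), and 8 to 10 when a single library was left out. UPF1, the central helicase of the pathway, had 4885, 4990 and 4781 (ALDH high) against 3724, 4839 and 4194 (ALDH low), with ALDH low 1 and ALDH low 3 lowest. The 19 listed targets of the pathway had 13 differences below 0, and the median was −0.07 (−0.03 after scaling to total counts, −0.01 if mitochondrial genes were omitted). Of these targets, 8 had ALDH low 1 and 3 as their highest libraries, among them ATF4, the stress-response transcription factor, at 25174, 25506 and 25090.1 among ALDH high libraries, then 33281, 25638 and 35520 among the ALDH low ones. The splicing factor genes SRSF3 and SRSF7, whose transcripts include decay targets, were also highest in those libraries. Medians of this list were −0.01 without ALDH low 3 and −0.14 without ALDH low 2.

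Of 21 regulators and targets of TOP translation 11 were below 0, with a median of −0.07 that was −0.03 with total-count scaling, −0.01 with mitochondrial genes left out and −0.03 without ALDH high 1. Without ALDH low 1, 15 of them were below 0. The nucleolar ribosome-synthesis genes had 17 of 25 below 0 and a median of −0.08. Without ALDH low 3 the nucleolar list had 11 below 0 and a median of 0.04, and with total-count scaling or mitochondrial genes left out it had 14 and 13 below 0 and medians of −0.04 and −0.02. None in either list was called. EEF1A1, a classic TOP mRNA, had 261492, 325106 and 271219 (ALDH high) against 385525, 263285 and 409771 (ALDH low), with ALDH low 1 and 3 highest. Those were the 2 highest libraries in 6 of the 21 genes of the TOP list (28.6%), beside 13% of all genes. In the nucleolar list they were so in 1 of 25 (4%). NCL, which encodes nucleolin and is itself a snoRNA host, ranged only from 25902 to 30802 over the 6 libraries.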

How the data were processed

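Poly(A) RNA of 3 ALDH high and 3 ALDH low LNCaP samples was grouped by the labels. The submitters' processing notes list STAR 2.5.2b, Trimmomatic 0.36, Subread 1.5.2 with featureCounts, DESeq2 and the build GRCh38. Per the labels' protocols, uniquely placed reads in exons were counted. Which annotation was counted is not given in these sources. The deposited signal is the read count of a gene divided by 1 size factor per sample. The authors also deposited a log2 fold change, a p-value and an adjusted p-value.

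Whole reads were recovered: at least 99.99% of a library's values were within 0.02 of a whole read, and edgeR called 0 genes on them. The main test was limma 3.58.1 (R 4.3.3), with its trend option, on log2(normalized read + 1), all 16000 genes without the 46 spike-ins, Benjamini-Hochberg adjustment and a threshold of 0.05; this scale understates changes of low genes. Alternatives were edgeR 4.0.16, DESeq2 1.42.0, limma-voom, other scalings, pseudocounts, a minimum mean, a replicate block and leaving out libraries. Scripts were tested on simulated data. Positions, exons and hosted snoRNAs came from GENCODE 29 (GRCh38), which matched 15939 genes, snoRNA counts and start sequences from RefSeq.

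The genes and lists were chosen with earlier results of these data known. Named by rule were the 10 hosts, up to 3 of the most abundant genes of a list, divergent neighbours within 2 kb, and the 5 genes most like the hosts' mean. Other named genes, and the split by ribosomal protein genes, were chosen after their values were seen.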

Additional observations from a re-analysis of the deposited data

Results flagged for a closer look

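ERCC RNAs are synthetic controls added to a library, and no comparison used them. They made up 0.487% of all recovered reads, above the limit that a count of 0 would set. By library number the ALDH high libraries held 0.630%, 0.399% and 0.403%, against 0.491%, 0.556% and 0.448% for ALDH low. ALDH low 1 and ALDH low 3, where most hosts were highest, lay between the other libraries. With 3 libraries a group, single outlying values were not searched for.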

How the results depend on the processing

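No gene was called under the other tests, scalings, pseudocounts, the minimum mean or when 1 library was left out. The sign of 9 hosts was the same under all 17 alternatives, and that of SNHG16 turned to −0.16 without ALDH low 1 alone. With both libraries numbered 2 left out, an alternative added after seeing the data, 107 genes were called, among them SNHG8 at −1.23. Leaving out 1 library gave ranges of −1.14 to −0.42 for SNHG8, −0.72 to −0.36 for SNHG6, −0.76 to −0.32 for SNHG5, −0.58 to −0.19 for ZFAS1 and −0.47 to −0.12 for GAS5. Ranges were −0.29 to −0.09 for SNHG7, −0.24 to −0.11 for SNHG12, −0.29 to −0.03 for SNHG15, −0.20 to −0.01 for SNHG1 and −0.16 to 0.24 for SNHG16. The hosts' share of reads in ALDH high was 0.853 per 1000 with mitochondrial genes left out of the total, which makes the total smaller. Total-count scaling moved the median of all genes from 0.02 to 0.06, and leaving out mitochondrial genes moved it to 0.07, where the 10 hosts had medians of −0.19 and −0.17. With mitochondrial genes left out 37.5% of all genes lay below 0, and with total-count scaling 40.2%. With a replicate block, limma called 0 genes and left SNHG8 at −0.69 (adjusted p = 0.999). Whether same-numbered samples belong together is not given. Same-numbered pairs had correlations of −0.46, −0.43 and 0.14 between their deviations from the group mean. With 3 libraries a group and labels used as given, these values cannot decide it. With as few as 282 reads of a host in a library (SNHG12), counting error adds to the spread between libraries, and 3 libraries a group limit the precision.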
